A study of Mus musculus with 23 samples.

Results

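The oncostatin M and interleukin-6 axis was followed through 8 genes in macrophages and monocytes from mice that carried a subcutaneous hydrogel of poly(ethylene glycol) (PEG) or had none. The genes were 4 ligands (Osm, Il6, Lif and Clcf1), the receptor chains Il6ra and Il6st, the transcription factor Stat3 and the inhibitor Socs3. They were found by symbol among the 47729 entries of the gene count table, each matched 1 entry, and all 8 passed the low count filter that left 16260 genes for testing. Cytokines of this family signal through gp130, the receptor chain encoded by Il6st, which pairs with a ligand-specific chain such as the interleukin-6 receptor (Il6ra), the oncostatin M receptor (Osmr) or the leukemia inhibitory factor receptor (Lifr). Janus kinases bound to the receptor then phosphorylate STAT3, and STAT3 switches on Socs3, whose product binds gp130 and shuts the signal down. In skin and other connective tissue, activated macrophages, monocytes and neutrophils are known sources of oncostatin M, while fibroblasts, endothelial cells and epithelial cells are its main responders.

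All animals were C57BL/6J mice without a transgene named in the labels. Implant groups were taken 2, 14 and 28 days after a PEG hydrogel, a synthetic water-swollen polymer network, was placed subcutaneously, and the controls are labelled as having had no treatment. Every group is labelled as subcutaneous tissue, which was digested with the enzyme blend Liberase TM, and the cells are described as Cx3cr1-positive, with macrophages low and monocytes high for Ly6C. The 23 libraries form 8 groups of 3 biological replicates, except the macrophage controls with 2. The labels do not say whether animals were pooled or whether controls had surgery.

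Each library held between 9303153 and 32994092 counts (median 24722229), which makes 3 counts worth 0.091 to 0.32 CPM, the unit of counts scaled to the library total. Levels below are CPM scaled with the trimmed mean of M values (TMM), the scale on which the fold changes were tested. The summed level of 7 macrophage markers was 6607 to 18632 in macrophage libraries and 1644 to 5699 in monocyte libraries. For 6 classical monocyte markers it was 4655 to 15371 in monocyte libraries and 699 to 3093 in macrophage libraries, and neither range overlapped between the cell types. Within monocytes, however, 6, 5 and 5 of the 7 macrophage markers were called higher than in controls at days 2, 14 and 28. Of all tested genes, 15.5%, 19.8% and 11.7% were called higher there. C1qb went from 9.41 to 1016, 1154 and 1411. Within macrophages, 4 of the 6 classical monocyte markers were called higher at day 2, where 10.1% of all tested genes were. The monocyte controls, labelled as subcutaneous tissue like all other groups, also carried the granulocyte precursor gene Ngp at a mean of 1108, against at most 10.7 in any other group. What tissue and mix of cells the monocyte controls came from is therefore not settled by these data. Every monocyte fold change against control and every cell type difference in the implant effect below rests on them, and a change within a cell and a change in the cells sorted cannot be told apart there. In macrophages the summed macrophage markers also split, at 15398 to 18632 in controls and 6607 to 11766 with an implant. The 2 kinds of change cannot be told apart in the macrophage comparisons with controls either. Neutrophil and fibroblast markers were present in some groups, and their values are given below beside those of the ligands. Keratinocyte markers were at 0 in every library but 1, where their sum was 0.0692. These are bulk samples, in which fewer cells of a type and less RNA per cell cannot be told apart.

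Osm, encoding oncostatin M, was by far the most abundant ligand and rose in both cell types at every time after implantation. The gene lies on chromosome 11 (chr11:4236420-4241026, GRCm38, plus strand), 16.5 kb upstream of Lif, and has 2272 bases of annotated exon. In control macrophages the 2 libraries held 24.2 and 18.6 TMM-scaled CPM. Macrophage libraries with an implant held 349, 369 and 329 at day 2, 301, 335 and 230.1 at day 14, and 229.6, 296 and 414 at day 28. Every implant library was at least several times above both controls, and the 3 implant days overlapped each other. In monocytes the controls held 28.1, 21.3 and 36.7 TMM-scaled CPM. Monocyte libraries then held 547, 823 and 810 at day 2, 1234, 1408 and 1153 at day 14, and 881, 1290 and 1750 at day 28. The lowest of these monocyte libraries lay above the highest macrophage library of any day.

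Against controls, the log2 fold change of Osm in macrophages was 4.03 ± 0.37 (standard error) at day 2, 3.76 ± 0.36 at day 14 and 3.87 ± 0.36 at day 28, or 16.3-fold, 13.5-fold and 14.7-fold. Adjusted p-values from edgeR's quasi-likelihood test with Benjamini-Hochberg adjustment were 3.7e-07, 9.9e-07 and 7.3e-07. In monocytes the log2 fold change was 4.66 ± 0.32 at day 2, 5.46 ± 0.33 at day 14 and 5.51 ± 0.33 at day 28, or 25.3-fold, 44.1-fold and 45.5-fold. The adjusted p-values were 2.1e-09, 2.9e-10 and 3.6e-10. The 3 days of a cell type share their control libraries. None of these 6 calls was lost under any alternative setting or when any 1 library was left out.

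Osm also differed between the cell types once an implant was present. Control macrophages and monocytes overlapped, with a log2 difference (macrophages minus monocytes) of -0.43 ± 0.31 and adjusted p 0.445. It was -1.06 ± 0.28 at day 2 (adjusted p 0.0359), -2.13 ± 0.28 at day 14 (2.2e-04) and -2.06 ± 0.28 at day 28 (7.2e-04). The day 2 call was lost in 5 of the 6 fits that left out 1 of its libraries (adjusted p at least 0.101). The day 28 call was lost when only the compared groups were fitted (0.105), a fit that called 1 of 16260 genes. The implant effect itself was smaller in macrophages, with an interaction of implant and cell type of -1.70 ± 0.41 at day 14 and -1.63 ± 0.41 at day 28 on the log2 scale. Adjusted p-values were 0.0141 and 0.0188, and at day 2 the difference of -0.63 ± 0.41 was not called (0.535). Without macrophage control A the interaction was -1.43 at day 14 (0.108) and -1.44 at day 28 (0.103). The day 28 interaction was also lost without macrophage day 28 library A, monocyte control A or B, or monocyte day 28 library C (up to 0.0584), with an exon length offset (-1.39, 0.0903) and with only the compared groups fitted (0.108).

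**Figure D1:**
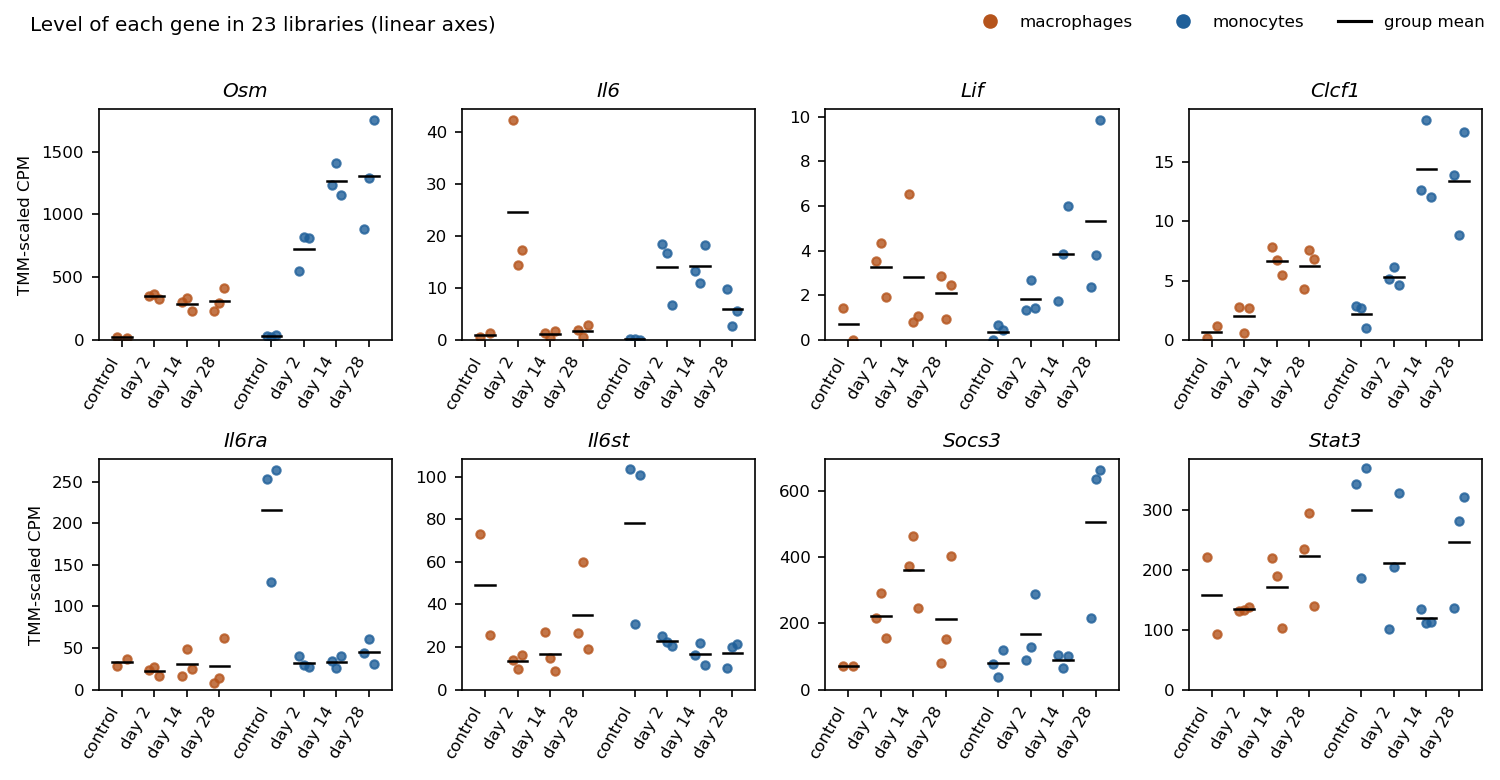
TMM-scaled CPM (linear axes, a separate scale for each gene) of the 8 genes in the 23 libraries, with macrophages in orange, monocytes in blue and black bars for group means. Osm lay between 18.6 and 36.7 in the 5 control libraries and between 229.6 and 1750 in the 18 libraries with an implant, and Il6ra stood highest in the 3 monocyte controls.

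Neutrophil markers moved with the day 2 macrophages, in which 8 of 10 were called higher, beside 10.1% of all tested genes. Their summed level over 10 genes was 69.4 to 102 in control macrophages, 3155 to 6740 in macrophages at day 2, and 121 to 343 at days 14 and 28, when Osm was at 229.6 to 414. In monocytes the same sum was 2650.1 to 4082 in controls, where Osm was at 21.3 to 36.7. At day 2 it was an overlapping 2189 to 5149, with 3 markers called higher and 3 lower (15.5% and 11.5% of all tested genes). At days 14 and 28 it was 314 to 849, where Osm was at 881 to 1750. Among the defining genes, Ly6g averaged 13.3 in macrophages and 6.21 in monocytes at day 2 and at most 0.999 in any other group. In macrophages Il6 was at 0.522 to 1.38 in controls, 14.4 to 42.3 at day 2 and 0.427 to 2.82 at days 14 and 28. In monocytes Il6 was at 0 to 0.218 in controls, 6.73 to 18.4 at day 2 and 2.68 to 18.3 at days 14 and 28. The part of neutrophils in the day 2 values of Osm and Il6 was not tested.

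Il6 encodes interleukin-6, the cytokine for which the family is named, and followed a different course in the 2 cell types. Its RefSeq promoter window (GRCm38.p6, chr5:30012864-30013163, plus strand, from 250 bases before to 50 bases after the start) is shown because it held matches to both motifs of inflammatory induction that were searched. The capitals mark, in order, the AP-1 letters TGANTCA at bases -249 to -243 from the start, and the NF-kB letters (GGGA, any base, then TTTCC) at -44 to -35.
Il6 promoter: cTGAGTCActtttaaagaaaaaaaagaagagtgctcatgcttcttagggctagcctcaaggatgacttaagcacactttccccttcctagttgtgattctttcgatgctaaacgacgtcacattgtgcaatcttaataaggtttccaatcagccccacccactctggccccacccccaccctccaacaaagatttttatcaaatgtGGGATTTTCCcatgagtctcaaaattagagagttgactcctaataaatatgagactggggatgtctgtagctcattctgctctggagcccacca
Among 32851 promoter windows of this length, searched on both strands, 7.81% held the AP-1 letters and 0.411% the NF-kB letters. A match is a description of the sequence and not a binding site found in these cells. The gene lies at chr5:30013114-30019981.

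Control macrophages held 0.522 and 1.38 TMM-scaled CPM of Il6, from 8 and 46 counts. Macrophages held 42.3, 14.4 and 17.3 at day 2, but 1.34, 0.427 and 1.79 at day 14 and 1.94, 0.565 and 2.82 at day 28. The day 2 libraries lay apart from all other macrophage libraries, while days 14 and 28 overlapped the controls. In control monocytes Il6 was at 0.218, 0.159 and 0, from 10, 6 and 0 counts. Monocytes with an implant held 18.4, 16.8 and 6.73 at day 2, 13.3, 11 and 18.3 at day 14, and 9.83, 2.68 and 5.61 at day 28. All 9 lay above the 3 controls.

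Il6 rose in macrophages at day 2, with a log2 fold change of 4.65 ± 0.98 and adjusted p 0.00265 in edgeR's quasi-likelihood test. Without macrophage control A it was 4.09 with adjusted p 0.067. At days 14 and 28 the values were 0.27 ± 0.84 (0.888) and 0.85 ± 0.84 (0.582). From day 2 to day 14 Il6 fell by 4.38 on the log2 scale (± 0.81, adjusted p 0.0114) in macrophages, a call lost without day 2 library A, day 14 library A or day 14 library B (up to 0.1). In monocytes it rose on all 3 days, with log2 fold changes of 6.73 ± 0.93, 6.75 ± 0.93 and 5.52 ± 0.89 and adjusted p-values of 2.4e-05, 1.5e-05 and 1.3e-04. Because the monocyte controls held only 16 counts in all, the size of these folds is loosely fixed.

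The cell type difference in the implant effect on Il6 was -6.48 ± 1.18 at day 14 (adjusted p 0.00175) and -4.67 ± 1.16 at day 28 (0.0177), and -2.08 ± 1.12 at day 2 (0.412). The day 28 call was lost without macrophage control B (-3.73, adjusted p 0.195) and when only the compared groups were fitted (0.134). These differences also rest on few control counts, 16 in all in monocytes and 8 and 46 in macrophages. At day 14 the level itself was lower in macrophages, by a log2 difference of -3.58 ± 0.78 (0.00812). In the same edgeR test the level was not called at day 2 (0.82 ± 0.70, 0.621) or day 28 (-1.76 ± 0.73, 0.206). Day 28 passed without the low count filter (-1.75, 0.0368), a fit that called 1285 of 27163 genes. In controls the level was higher in macrophages by 2.90 ± 0.90 (0.0372), which was lost without macrophage control B (1.97, adjusted p 0.401), without monocyte control B or C, and with only the compared groups fitted (0.244).

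Lif, encoding leukemia inhibitory factor, was the least counted of the 8 genes, with 1258 counts in all and 2 control libraries at 0. It lies next to Osm (chr11:4257557-4272514, plus strand) and, like Osm, was highest in monocytes at day 28. Control monocytes held 0, 0.664 and 0.45 TMM-scaled CPM, against 1.73, 3.83 and 6.01 at day 14 and 2.36, 3.8 and 9.83 at day 28. The log2 fold change was 3.37 ± 1.24 at day 14 (adjusted p 0.0375) and 3.84 ± 1.26 at day 28 (0.0386). Both calls were lost when monocyte control A or C, or library B or C of the day itself, was left out, with adjusted p up to 0.106 at day 14. They were also lost with only the compared groups fitted (0.0561 and 0.0606). In macrophages Lif was at 1.44 and 0 in controls and between 0.815 and 6.53 in the 9 implant libraries, and none of the 3 days passed the test (adjusted p 0.276, 0.403 and 0.513).

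Clcf1, encoding cardiotrophin-like cytokine factor 1, a ligand that signals through gp130 and Lifr, rose in both cell types at days 14 and 28. Macrophages held 0.131 and 1.2 TMM-scaled CPM in controls, 2.75, 0.617 and 2.66 at day 2, 7.87, 6.71 and 5.47 at day 14, and 4.26, 7.59 and 6.78 at day 28. Days 14 and 28 lay above every control and day 2 library. Monocytes held 2.83, 2.65 and 1.02 in controls, 5.11, 6.17 and 4.58 at day 2, 12.7, 18.5 and 12.1 at day 14, and 13.9, 8.88 and 17.5 at day 28. Here too the day 14 and day 28 libraries lay above all earlier ones. In macrophages the log2 fold change was 3.23 ± 0.73 at day 14 (adjusted p 0.00744) and 3.13 ± 0.73 at day 28 (0.00788). Control A held 2 counts of Clcf1, and without it, with 1 control left, the values were 2.47 and 2.38, neither called. Without control B they were 5.65 and 5.57. With only the compared groups fitted the adjusted p-values were 0.0641 and 0.128. In monocytes the log2 fold change was 2.73 ± 0.59 at day 14 (0.00136) and 2.63 ± 0.59 at day 28 (0.00344), and neither call was lost under any setting. Day 2 did not pass the test in macrophages (1.47 ± 0.69, 0.15) or monocytes (1.28 ± 0.57, 0.0999). It passed in macrophages without control B (3.83, 0.0238) and in monocytes with DESeq2 (1.30, 0.0472). An unnamed protein-coding entry shares 311 bases of exon with Clcf1 on the same strand and is not among the entries counted here.

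Like Il6, Lif and Clcf1, fibroblast markers stood higher in monocytes with an implant than in control monocytes. Summed over 8 genes, they were at 0.133 to 1.07 in control monocytes, with Col1a1, Lum and Pdgfra at 0, then at 13.4 to 137 at day 2, 644 to 1194 at day 14 and 281 to 686 at day 28. In macrophages the sum went the other way, from 195 to 261 in controls to 6.46 to 115 with an implant. At days 2, 14 and 28 the monocyte means of Il6 were 14.0, 14.2 and 6.04. Those of Lif were 1.81, 3.855 and 5.33, and those of Clcf1 5.29, 14.4 and 13.4. Fibroblasts are known to make interleukin-6 and leukemia inhibitory factor, and their part in the monocyte values was not tested.

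Per kilobase of exon, Osm made up 89 to 99.2% of the summed level of the 4 ligands in each of the 23 libraries. Its mean was 9.40 TMM-scaled CPM per kb in control macrophages and 12.6 in control monocytes, and 127 to 154 and 319.8 to 575 with an implant. The highest group mean of Il6 was 10.2 per kb, in macrophages at day 2. Lif reached 1.23 and Clcf1 3.79 per kb, both in monocytes. Of 8 other ligands of the family, Ctf2, Ebi3 and 1 more were counted often enough to test. In monocytes Ctf2, a cardiotrophin, rose at day 2 (log2 fold change 2.17 ± 0.69, adjusted p 0.0238) and day 14 (2.37 ± 0.69, 0.0108). Ebi3, a subunit shared by interleukin-27 and interleukin-35, fell at day 28 (-1.11 ± 0.36, 0.0335).

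On the receptor side, Il6ra and Il6st both fell in monocytes. Il6ra encodes the chain that binds interleukin-6 (chr3:89864059-89913196, minus strand, 8642 bases of exon). Control monocytes held 253, 129 and 264 TMM-scaled CPM. At day 2 they held 41.0, 30.1 and 26.7, at day 14 34.7, 25.9 and 41.0, and at day 28 44.5, 61.2 and 31.2. Even the lowest control was above every monocyte library with an implant. In macrophages the controls held 28.6 and 37.3. The day 2 libraries, at 16.1 to 26.7, all lay below both controls. Libraries of days 14 and 28 ran from 8.56 to 61.9 around the controls, both extremes at day 28.

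In monocytes the log2 fold change of Il6ra was -2.72 ± 0.56 at day 2, -2.67 ± 0.56 at day 14 and -2.24 ± 0.55 at day 28, with adjusted p-values of 0.0013, 9.4e-04 and 0.00637 by edgeR's quasi-likelihood test. None of these calls was lost under any setting. In macrophages the values were -0.56 ± 0.58, -0.12 ± 0.58 and -0.22 ± 0.58 (adjusted p 0.533, 0.932 and 0.872). Leaving out day 28 library C changed the last to -1.54 (0.041). The cell type difference in the implant effect missed the threshold at day 14 (2.55 ± 0.81, adjusted p 0.0575), and it passed with DESeq2 (2.44, 0.0192) and without the low count filter (2.70, 3.9e-05). At days 2 and 28 it was 2.17 ± 0.81 (0.169) and 2.02 ± 0.80 (0.163), both of which also passed without the filter (2.21, 0.00231 and 2.07, 0.00422). In controls the level was lower in macrophages, by a log2 difference of -2.71 ± 0.65 (0.00786), and this was lost without either macrophage control (0.094 and 0.0555). After implantation the cell types overlapped on every day, although at day 28 the difference was -1.97 (0.0136) without macrophage library C. The part of the cells that gave the Ngp signal in the monocyte controls was not tested for Il6ra.

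Il6st, encoding the shared chain gp130 (chr13:112464070-112510086, plus strand, 11099 bases of exon), fell in monocytes on all 3 days. The controls held 103, 30.9 and 101 TMM-scaled CPM. Implant libraries held 25.3, 22.5 and 20.4 at day 2, 16.1, 22 and 11.6 at day 14, and 10.1, 20.1 and 21.5 at day 28. All 9 lay below the lowest control, although control B was much closer to them than controls A and C. The log2 fold change was -1.78 ± 0.52, -2.24 ± 0.53 and -2.18 ± 0.53, with adjusted p-values of 0.0159, 0.00268 and 0.00623. The day 2 call was lost without monocyte control A or C or day 2 library B or C (adjusted p up to 0.0559), and the other 2 were kept in every fit.

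In macrophages Il6st was at 72.9 and 25.6 TMM-scaled CPM in controls. It was at 13.9, 9.71 and 16.2 at day 2, 26.9, 14.9 and 8.66 at day 14, and 26.4, 59.9 and 18.9 at day 28. Only the day 2 libraries all lay below both controls. The log2 fold change at day 2 was -1.90 ± 0.57 (adjusted p 0.0257). Without control A, with 1 control left, the value was -1.02 and not called. Leaving out any 1 day 2 library also ended the call (up to 0.086), as did the replicate block (-1.77, 0.0563). Days 14 and 28 gave -1.55 ± 0.56 (0.097) and -0.49 ± 0.56 (0.652), and day 14 passed with DESeq2 (-1.60, 0.0423) and without the low count filter (-1.51, 0.00795).

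Transcript length moved with these comparisons, and Il6ra, Il6st and Stat3 are all long. Among the 1574 tested genes with 8 to 12 kb of exon, the median log2 fold change was -0.52, -0.34 and -0.05 in macrophages and -0.41, -0.43 and -0.25 in monocytes at days 2, 14 and 28. Among the 2595 genes with 2 to 3 kb it was between -0.05 and 0.13. With an offset for exon length, an alternative chosen after seeing the data, Il6ra in monocytes was at -2.29, -2.16 and -1.95 and Il6st at -1.34, -1.74 and -1.88, all 6 still called. The Il6st value in macrophages at day 2 became -1.31 and was no longer called (adjusted p 0.0855).

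Of the other receptor chains, Osmr was nearly absent. It had 130 counts over all libraries, 14 of which were at 0, and 76 of the counts came from 1 macrophage library at day 28 at 2.68 TMM-scaled CPM. It was at 0 in every monocyte control and every day 14 macrophage library. Lifr, the chain used by leukemia inhibitory factor and Clcf1, averaged 236 in control macrophages and 28.4, 50.7 and 31.6 at days 2, 14 and 28. Its log2 fold change was -3.05 ± 0.58 (adjusted p 0.00117), -2.22 ± 0.57 (0.0175) and -2.90 ± 0.58 (0.00233). These values rest on 2 controls, at 234 and 237. Lifr is also long, with 10776 bases of exon, and its values with the length offset or without single libraries are not given here. In monocytes Lifr fell at day 14, from 43.7 to 8.17 (-2.42 ± 0.54, 0.00178). Il11ra1, the interleukin-11 receptor chain, rose in monocytes at day 14 (1.53 ± 0.36, 0.0023) and day 28 (1.38 ± 0.35, 0.00932). Of 7 receptors listed 6 were tested, and in no comparison with controls were more than 2 called. Those 2 were Il11ra1 and Lifr in monocytes at day 14, where 19.8% of all tested genes were called higher and 17.9% lower. In macrophages Lifr alone was called, where 7.1%, 2.7% and 3.99% of all tested genes were called lower at days 2, 14 and 28.

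**Figure D2:**
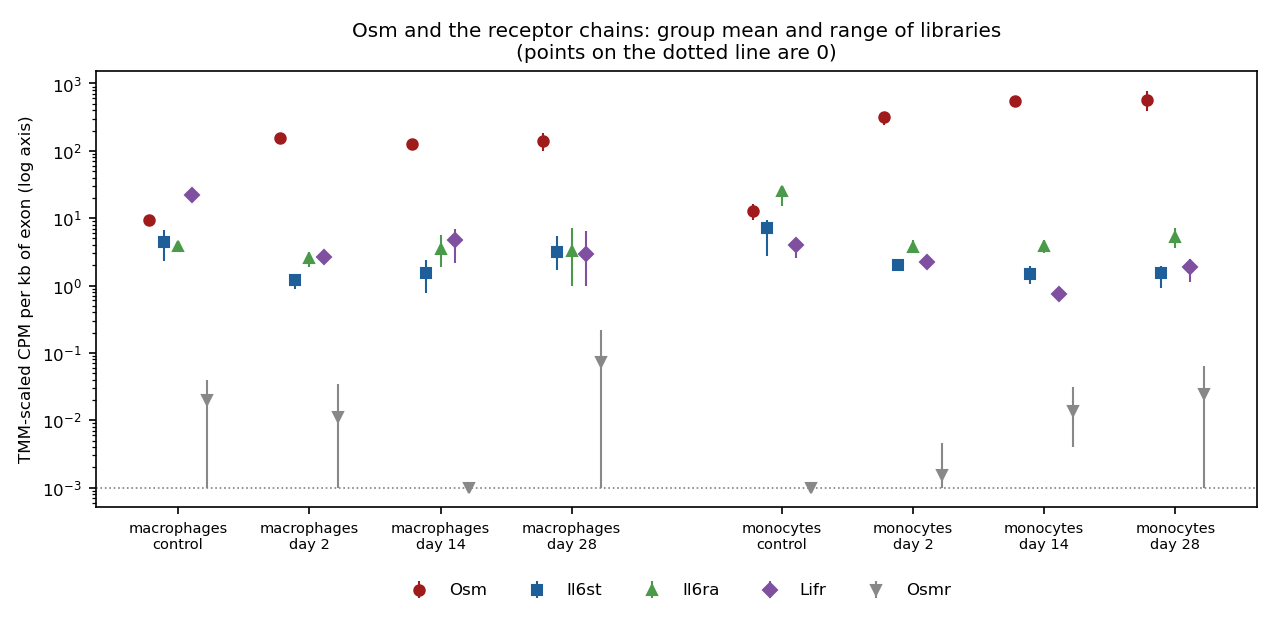
Mean TMM-scaled CPM per kilobase of exon (log axis) of Osm and 4 receptor chains in each group, with bars from the lowest to the highest library and values of 0 drawn on the dotted line. Osm rose from 9.40 and 12.6 in the controls to between 127 and 575 with an implant, while the mean of Il6st lay below its control in every implant group and Osmr stayed at the bottom of the axis.

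Within a library the ratio of Osm to Il6st per kilobase does not depend on the scaling. As Osm has 2272 bases of exon and Il6st 11099, a trend with exon length stays in the ratio. Its log2 value was 0.41 to 1.83 in the 5 control libraries and 4.59 to 8.93 in the 18 implant libraries. In monocytes it was 6.72 to 7.60 at day 2, 8.29 to 8.93 at day 14 and 8.29 to 8.73 at day 28. Macrophage ratios ran from 6.63 to 7.54 at day 2, 5.78 to 7.02 at day 14 and 4.59 to 6.74 at day 28. Control and implant libraries did not overlap in either cell type. The log2 ratio of Il6ra to Il6st was 1.65 to 2.43 in control monocytes and 0.60 to 2.50 with an implant, which overlapped.

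Stat3, the transcription factor downstream of gp130 (chr11:100885098-100939540, minus strand, 9527 bases of exon), passed the test in 1 comparison. Control macrophages held 221 and 92.9 TMM-scaled CPM, and the implant libraries ran from 104 to 295 with no day apart from the controls. Control monocytes held 343, 186 and 370.0, and at day 14 they held 135, 111 and 113, below all 3 controls. Days 2 and 28 ran from 101 to 328 and from 137 to 321, and overlapped the controls. The log2 fold change at day 14 in monocytes was -1.33 ± 0.43 (adjusted p 0.0194), the call for Stat3. It was lost without monocyte control A or C or day 14 library B (up to 0.0694) and with the exon length offset (-0.83, 0.103). Stat3 shares 72 bases of exon with Stat5a on the opposite strand, and the library kit does not mark strand. Stat5a had 12123 counts in all against 114713 for Stat3.

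Among 13 kinases, other STATs and adaptors, all tested, falls outnumbered rises in monocytes at days 2 and 14. At day 2, 2 rose and 6 fell (background: 15.5% of all tested genes called higher and 11.5% lower). At day 14 the counts were 2 and 6 (background 19.8% and 17.9%), and at day 28 2 and 2 (11.7% and 6.52%). Macrophages had 0 rises and 3 falls at day 2 (background 10.1% higher and 7.1% lower), and 0 rises and 1 fall at day 14 (5.51% and 2.7%) and at day 28 (6.57% and 3.99%), so that 1 fall of 13 lay near the background. Tyk2, a receptor-bound kinase, averaged 163 in control monocytes and 28.0, 24.6 and 47.5 at days 2, 14 and 28 (-2.54 ± 0.54, -2.73 ± 0.55 and -1.78 ± 0.53). Stat5b went from 117 to 28.5, 20.2 and 40.1. Gab1, an adaptor recruited to gp130 signalling, rose from 5.45 to 39.2, 30.0 and 48.8 (2.85 ± 0.47, 2.46 ± 0.46 and 3.16 ± 0.47, adjusted p at most 3.7e-04). Jak1, the main gp130 kinase, fell in monocytes at day 14 (-1.23 ± 0.36, 0.0116) and did not pass in the other 5 comparisons with controls. In macrophages Stat2, an interferon pathway STAT, was called lower on all 3 days (-2.72 ± 0.51, -1.68 ± 0.50 and -1.92 ± 0.50).

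Socs3, the inhibitor induced by STAT3, rose in macrophages at day 14 and in monocytes at day 28; the cell type difference in its implant effect was called on none of the 3 days by edgeR as reported. It lies at chr11:117966079-117970047, minus strand, with 2891 bases of exon. Its RefSeq promoter window (GRCm38.p6, chr11:117969317-117969616, minus strand) is shown because it was the 1 window of the 6 held for these genes that matched the STAT letters TTCNNNGAA, in capitals at bases -154 to -146 from the start.
Socs3 promoter: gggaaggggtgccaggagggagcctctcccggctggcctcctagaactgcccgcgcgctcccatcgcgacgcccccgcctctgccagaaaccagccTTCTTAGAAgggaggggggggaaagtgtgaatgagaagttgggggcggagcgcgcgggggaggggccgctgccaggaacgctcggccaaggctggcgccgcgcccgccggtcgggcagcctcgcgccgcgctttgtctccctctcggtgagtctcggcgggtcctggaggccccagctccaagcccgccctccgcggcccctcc
These letters, searched on both strands, occurred in 8.3% of the 32851 windows. The Lif window held the AP-1 letters at -228 to -222, and the windows of Il6ra, Il6st and Stat3 held none of the 3 motifs. Osm and Clcf1 were not among the promoters used.

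Control macrophages held 72.9 and 70.9 TMM-scaled CPM of Socs3. Macrophages held 215, 292 and 157 at day 2, 374, 464 and 246 at day 14, and 80.8, 154 and 403 at day 28. All 9 implant libraries were above both controls, but at day 28 the lowest was close to them. Control monocytes held 77.9, 39.9 and 121. They held 90.5, 128 and 288 at day 2, 103.5, 64.3 and 102 at day 14, and 217, 638 and 665 at day 28. Monocytes at day 28 lay above all other monocyte libraries except day 2 library C, and at day 14 they overlapped the controls.

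In macrophages the log2 fold change of Socs3 was 2.33 ± 0.65 at day 14 (adjusted p 0.0293), and 1.62 ± 0.63 (0.0822) and 1.56 ± 0.63 (0.123) at days 2 and 28. Leaving out either control, or day 14 library A or B, ended the day 14 call (up to 0.224), and the day 2 value passed with DESeq2 (1.59, 0.0329). Without the low count filter both other days passed (1.56, 8.0e-04 and 1.59, 7.6e-04). Monocytes gave 2.67 ± 0.57 at day 28 (0.00203), kept in every fit, and 1.09 ± 0.54 (0.137) and 0.17 ± 0.53 (0.831) at days 2 and 14. From day 14 to day 28 Socs3 rose in monocytes by 2.50 ± 0.56 (0.0485), a call lost without any 1 of 5 of the 6 libraries (up to 0.169) and with the replicate block (2.4, 0.052). At day 14 it was higher in macrophages than in monocytes by 2.01 ± 0.55 (0.0272), which 5 of 6 such fits lost (up to 0.0922). Neither day 14 nor day 28 passed the test of a cell type difference in the implant effect (2.16 ± 0.82, 0.11 and -1.11 ± 0.79, 0.521). The day 14 difference passed without the low count filter (2.32, 1.0e-04) and with only the compared groups (2.22, 0.035).

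Early response genes, which tissue digestion can induce, stood higher in implant than in control macrophages, as Socs3 did. Their summed level over 11 genes was 4646 to 5052 in control macrophages, 7882 to 10523 at day 2, 9196 to 15781 at day 14 and 10349 to 11430 at day 28. In monocytes the sum was 7651 to 10098 in controls and 7752 to 11155 at day 2. It was 10050.0 to 13995 at day 14 and 11866 to 19999 at day 28. Socs3 overlapped its monocyte controls at days 2 and 14. All libraries are labelled as digested, and the part of digestion was not tested.

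**Figure D3:**
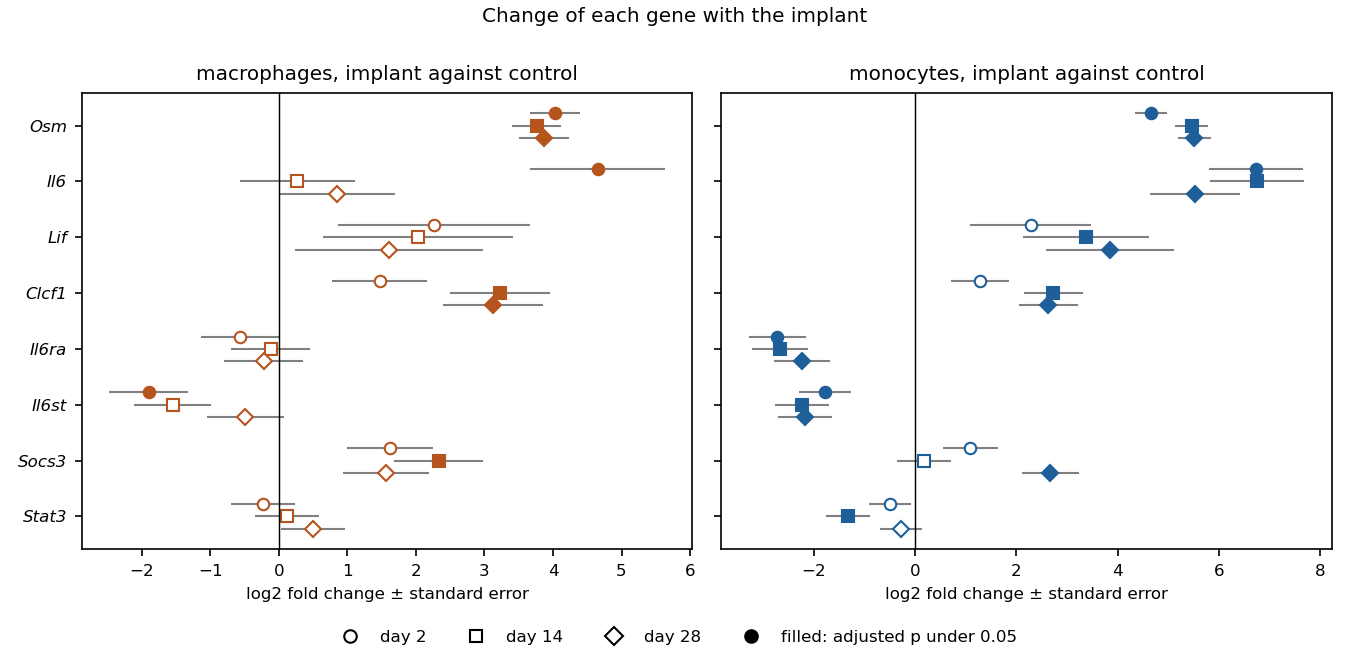
Log2 fold change (points) and standard error (bars) of the 8 genes, implant against control, in macrophages and monocytes at days 2, 14 and 28, with filled symbols for adjusted p under 0.05. Osm is filled on all 6 lines, Il6ra and Il6st lie below 0 on all 3 monocyte lines, and Socs3 is filled at day 14 in macrophages (2.33) and day 28 in monocytes (2.67).

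The other inhibitors were called in both directions. Of 14, all tested, 3 were higher and 1 lower in macrophages at day 2, 0 and 1 at day 14, and 1 and 0 at day 28. In monocytes the counts were 2 and 2, 3 and 5, and 3 and 1. Beside the backgrounds given for the kinases and STATs, most of these counts are near the share of all genes. Cish, an inhibitor known from STAT5 signalling, stood apart in size. It averaged 0.349 TMM-scaled CPM in control monocytes (0 to 0.994) and 51.6, 34.0 and 37.4 at days 2, 14 and 28. The log2 fold change was 7.18 ± 1.00, 6.58 ± 0.98 and 6.72 ± 0.99 (adjusted p at most 4.7e-05). With controls near the worth of 3 counts, the size of these folds is loosely fixed. In macrophages Cish rose at day 2 (3.29 ± 1.01, 0.0294). Socs2 rose in macrophages at days 2 and 28 (2.82 ± 0.85 and 3.21 ± 0.87) and in monocytes at day 28 (3.68 ± 0.75). Ptpn2, a phosphatase that acts on Janus kinases and STATs, rose in monocytes on all 3 days by 1.52 ± 0.24, 1.27 ± 0.24 and 0.81 ± 0.24 and in macrophages at day 2 by 0.91 ± 0.27.

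Of 6 genes for shedding and processing of receptors and ligands, Furin, a protein-cleaving enzyme of the secretory route, rose at day 28 in macrophages (22.8 to 128, log2 fold change 2.48 ± 0.54, adjusted p 0.00478) and monocytes (27.6 to 73.9, 1.42 ± 0.45, 0.0315). Rhbdf1, a partner of the sheddase Adam17, fell in macrophages at day 2 (-5.86 ± 1.40) and day 28 (-4.10 ± 1.28). Pcsk5, a related enzyme, was called in monocytes at days 14 and 28 at means of 0.219 and 0.458 against 0 in controls. Adam17 and Adam10, which release the soluble interleukin-6 receptor, were called in none of the 6 comparisons.

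Among genes described elsewhere as STAT3 targets, more were called higher than lower in every comparison with controls. Of 22, all tested, macrophages had 10, 6 and 8 rises and 0 falls at days 2, 14 and 28, and monocytes had 14, 12 and 12 rises and 3, 3 and 2 falls. Of all tested genes, 10.1%, 5.51% and 6.57% were called higher in macrophages and 15.5%, 19.8% and 11.7% in monocytes. The median log2 fold change of the 22 was 1.14, 1.03 and 1.06 in macrophages and 1.43, 1.42 and 1.63 in monocytes, beside a median over all tested genes between -0.16 and 0. Il1rn, the interleukin-1 receptor antagonist, went from 19.0 in control macrophages to 607, 1065 and 906, and from 33.5 in control monocytes to 967, 3945 and 2124. Timp1, an inhibitor of matrix proteases, went from 1.75 to 210, 73.2 and 92.1 in macrophages and from 0.0853 to 145, 259 and 169 in monocytes. Its monocyte controls, at 0.0237 to 0.153, were near the worth of 3 counts, so the size of that rise is loosely fixed. Vegfa, a growth factor for blood vessels, went from 0.482 to 101, 195 and 155 and from 1.15 to 84.3, 268 and 332. All 18 of these changes were called (adjusted p at most 1.6e-05). These genes answer to other pathways as well, and the list was chosen with results of these data known.

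Counted over the 8 genes of the axis, macrophages had 2 rises and 1 fall at day 2 (Osm and Il6, and Il6st), where 10.1% of all tested genes were called higher and 7.1% lower. At day 14 they had 3 rises (Osm, Clcf1 and Socs3) and 0 falls, with backgrounds of 5.51% and 2.7%, and at day 28 2 rises (Osm and Clcf1) and 0 falls, with 6.57% and 3.99%. Monocytes had 2 rises and 2 falls at day 2, 4 and 3 at day 14, and 5 and 2 at day 28, against the monocyte backgrounds above. The median log2 fold change of the 8 genes was 1.54, 1.15 and 1.21 in macrophages and 1.19, 1.45 and 2.65 in monocytes. Over all tested genes it was -0.16, -0.08 and -0.03, and 0, -0.03 and 0.

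Between macrophages and monocytes, 1 of the 8 was higher and 1 lower in controls (Il6 and Il6ra; background 7.61% and 4.9%). At day 2 Osm was the 1 gene called, lower in macrophages (background 1.64% higher and 1.78% lower). At day 14 Socs3 was higher and Osm and Il6 lower (5.34% and 4.02%), and at day 28 Osm was lower (1.49% and 1.03%). The test of the cell type difference in the implant effect called 0, 2 and 2 genes, all toward a smaller effect in macrophages, with backgrounds of 2.42%, 4.29% and 3.55% in that direction and 1.37%, 3.25% and 2.23% in the other. At day 2 the edgeR count of 0 compares with 1 gene at an unadjusted p under 0.05 (Il6ra) and 0 by DESeq2.

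Successive days changed few of the genes. In macrophages Il6 fell from day 2 to day 14 (background 0.197% higher and 0.277% lower), and no gene was called from day 14 to day 28 (0.00615% of all genes called higher and 0% lower), where none had an unadjusted p under 0.05 in edgeR and none was called by DESeq2. In monocytes none was called from day 2 to day 14 (0.486% higher and 0.24% lower) by edgeR or DESeq2, and 2 had an unadjusted p under 0.05: Osm (0.80 ± 0.27) and Clcf1 (1.45 ± 0.57). Osm libraries of those days did not overlap. From day 14 to day 28 Socs3 rose (0.59% called higher and 0.129% lower).

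Ordered by mean level over the 8 groups, Osm ran from monocytes at days 28, 14 and 2 (1307 ± 435, 1265 ± 130.1 and 727 ± 155, SD, n = 3 each) through macrophages at days 2, 28 and 14 (349 ± 20.2, 313 ± 93.1 and 289 ± 53.8, n = 3 each) to control monocytes (28.7 ± 7.74, n = 3) and control macrophages (21.4 ± 3.95, n = 2). Neighbours lay apart only between monocytes at days 14 and 2, between monocytes and macrophages at day 2, and between macrophages at day 14 and the monocyte controls. For Il6 only control monocytes lay apart from their neighbour, and for Il6ra only control monocytes, at 215 ± 74.7. For Clcf1 the steps apart were from monocytes at day 28 (13.4 ± 4.33) to macrophages at day 14 (6.68 ± 1.2), and from monocytes at day 2 (5.29 ± 0.807) to monocyte controls (2.17 ± 1.00). For Lif, Il6st, Socs3 and Stat3 every pair of neighbours overlapped. With scaling by library totals in place of TMM the order was the same for Osm, Lif and Il6st and changed for the other 5. There monocytes at day 14, not control macrophages, were lowest for Socs3, and monocytes at day 28 were highest for Clcf1.

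The genes whose pattern over the 23 libraries was most like Osm, among 7183 genes whose mean was 10 CPM or more, were Ptgs2, Thbs1, Elk3, Slc25a20 and Tnfaip6. Their Pearson r of log2 CPM with Osm was 0.973, 0.966, 0.963, 0.957 and 0.956. For Socs3 they included Clic4, Riok3, Fam129b and Eva1b, with r of 0.872, 0.853, 0.826 and 0.818. The libraries fall into control and implant groups, and each library's scaling is shared by all its genes, so these values describe a shared pattern over groups and were not tested.

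**Figure D4:**
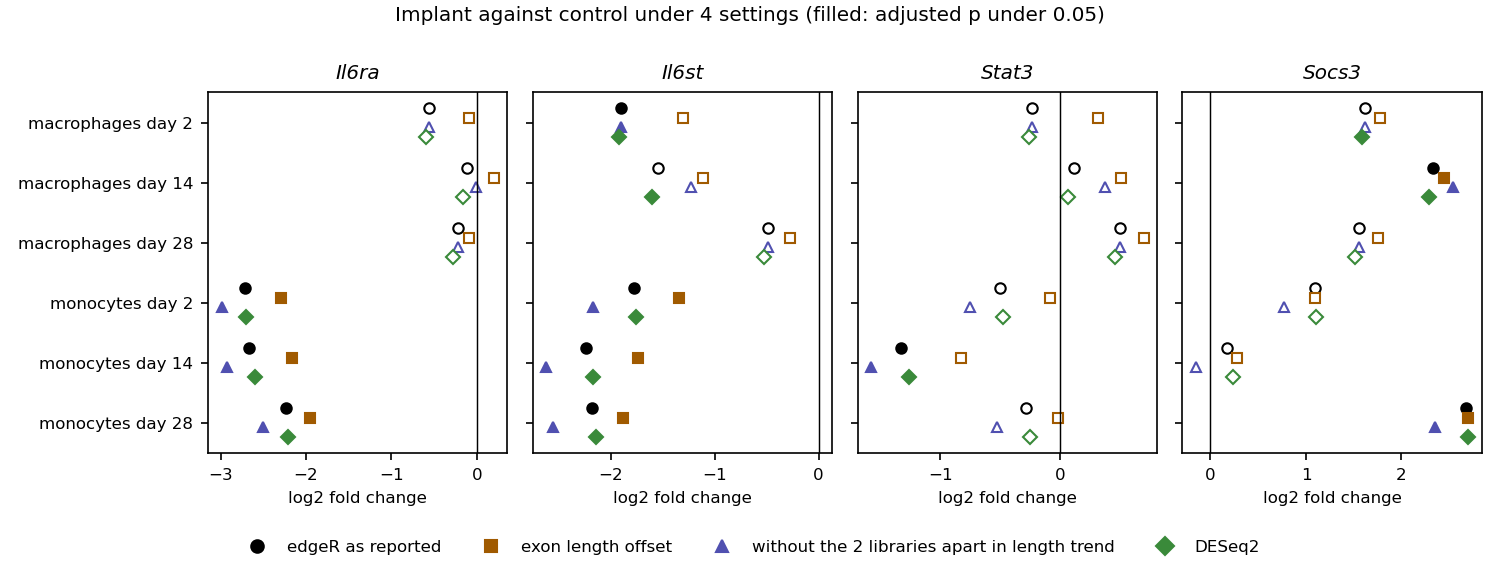
Log2 fold change against control of Il6ra, Il6st, Stat3 and Socs3 under 4 settings (edgeR as reported, with an exon length offset, without the 2 libraries apart in length trend, and DESeq2), with filled symbols for adjusted p under 0.05. Il6ra and Il6st in monocytes are filled under all 4 settings on all 3 days, while Stat3 at day 14 loses its call with the offset (-0.83).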

How the data were processed

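RNA of sorted macrophages and monocytes was sequenced in 23 libraries, made with the SMART-Seq v4 and Nextera XT kits per the labels' protocols. Per the submitters' processing notes, the authors used bcl2fastq, STAR 2.4.1d and featureCounts (Subread 1.5.1) with GRCm38. The sources used here do not give the annotation release, the strand setting or the rule for multiply matching reads. What they deposited are raw counts, whole numbers for 47729 gene entries. GENCODE M21 supplied a symbol, position and exon length for 47310 of these, and the remaining entries took 0.095% of all counts. No 2 libraries were identical.

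The analysis ran in R 4.3.3. After filterByExpr by group had left 16260 genes, edgeR 4.0.16 (with limma 3.58.1) estimated TMM factors (0.727 to 1.41) and fitted a single robust quasi-likelihood model to the 8 groups. Each of 17 contrasts was tested with an F test, and a gene was called when its p-value, adjusted by Benjamini-Hochberg across the tested genes, was under 0.05. The prior count was 0.125. Standard errors were derived as |log2 fold change| divided by the root of F. Printed levels are CPM divided by the TMM factor. Groups were to be ordered by CPM of library totals, and the scaled order is printed because fold changes use that scale. Precision is set by 2 or 3 libraries a group, which the design note calls biological replicates, and the worth of 3 counts (0.091 to 0.32 CPM) covers counting error only.

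The alternatives tried were RLE size factors, omission of the low count filter, DESeq2 1.42.0, a fit of the compared groups alone, the replicate letter as a block, a larger prior count (2) and omission of single libraries. Added after the data were seen were an offset for exon length and the omission of 2 libraries whose length trend differed from the rest of their group (macrophage day 14 C and monocyte control B). The fit was tested on simulated data. All 8 genes are described. In each list and comparison up to 4 called genes with the smallest adjusted p could be named, plus Osmr, Lifr, Il11ra1 and Jak1, while Adam10 and Adam17 were named after their values were seen. For Osm and Socs3 the 5 genes with the highest Pearson r were picked, and 1 of these is not reported here. The genes, lists and tests were chosen with earlier results of these data known. RefSeq (GRCm38.p6) supplied promoter windows for 6 of the 8 genes.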

Additional observations from a re-analysis of the deposited data

Results flagged for a closer look

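In 4 results the implant effect differed between macrophages and monocytes by an interaction test, as log2 differences (macrophages minus monocytes). For Osm they were -1.70 at day 14 and -1.63 at day 28, and for Il6 -6.48 at day 14 and -4.67 at day 28. Groups of 2 or 3 libraries were too small for a search for single outlying libraries.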

How the results depend on the processing

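Over every gene, comparison and alternative setting, 1802 values kept their direction and their side of the threshold, 73 lost the call, 29 gained one, 88 changed sign without being called under either setting, and 0 called values reversed. The larger prior count is among these settings, although it alters only the fold change and could not alter a call. The cause of each change was not tested unless stated. Leaving out 1 library at a time gave 1 to 4 called genes in macrophages at day 2 against 3 reported, 1 to 3 at day 14 (3) and 1 to 3 at day 28 (2). Between the cell types it gave 1 to 2 in controls (2), 0 to 1 at day 2 (1) and 1 to 3 at day 28 (1). From day 2 to day 14 in macrophages it gave 0 to 1 (1), from day 14 to day 28 in monocytes 0 to 1 (1), and for the cell type difference in the implant effect 1 to 3 at day 14 (2) and 1 to 2 at day 28 (2). Comparisons whose counts changed by a smaller ratio are not listed, but they also lost calls without 1 library. These were Il6st at day 2, Lif and Stat3 at day 14 and Lif at day 28 in monocytes, and Socs3 between the cell types at day 14. With only the compared groups fitted, and so fewer samples to estimate the spread, the counts were 1 for macrophages at day 28, 1 between cell types in controls, 0 between them at day 28, and 1, 4 and 0 for the cell type difference at days 2, 14 and 28. Without the low count filter they were 3 between cell types at day 28, 2 from day 14 to day 28 in monocytes, and 1, 5 and 4 for the cell type difference at days 2, 14 and 28. The exon length offset left 1 for the cell type difference at day 28, and leaving out the 2 libraries apart in length trend left 1 between cell types in controls. Replicate letters are shared across groups but not described, and same-letter libraries did not deviate together (r from -0.23 to 0.24 over 77 pairs, 4 of 23 libraries closest to their own letter). With the letters as a replicate block the count from day 14 to day 28 in monocytes was 0, and Il6st in macrophages at day 2, Lif in monocytes at days 14 and 28 (adjusted p 0.0564 and 0.0636) and Socs3 from day 14 to day 28 in monocytes lost their calls. With 2 macrophage controls, leaving out 1 leaves 1, and a lost call cannot be assigned to that library or to the smaller group. Without control A the log2 fold change at day 2 was 4.09 for Il6 (4.65 reported) and -1.02 for Il6st (-1.90 reported). For Clcf1 it was 2.47 at day 14 and 2.38 at day 28 (3.23 and 3.13 reported). Low counts limit Lif and the control levels of Il6 and Clcf1.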
